A study of Homo sapiens with 36 samples.

Results

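The loci described here are those of 7 human genes, the liprin-α scaffold genes PPFIA1, PPFIA2, PPFIA3 and PPFIA4, the secretory granule phosphatase genes PTPRN and PTPRN2, and the adhesion phosphatase gene PTPRM. A peak of HIF-α binding was counted at a locus when its summit, the base with most fragments, lay in the GENCODE gene body or within 50 kb on either side. The members were thus selected on called peaks and their positions, and the 2 loci PPFIA4 and PTPRN for binding already seen in these libraries. Overlapping peaks of different libraries were merged, and the 18 peak lists then held 61215 regions, of which 90 were sites of these loci (302 of 213711 peaks). Of the 90 sites, 35 were called in at least 2 libraries, against 25783 of all regions, and 55 were called in 1 library.

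Binding was measured by Cut&Run, in which an antibody directs a nuclease to cut out the DNA around a bound protein, with anti-V5 antibody and with IgG as control, in 6 lines of 786-O, a renal carcinoma cell line without working VHL. WT cells carried no V5 tag. The HIF-2α KIN line was 1 homozygous knock-in clone, A31, with V5 and HaloTag at the N-terminus of its own HIF-2α, and the other 4 tagged lines stably expressed an added V5-HaloTag protein from the L30 promoter, on top of the HIF-2α that 786-O makes itself. These were HIF-2α, HIF-1α and 2 chimeras. HIF-2α/1α joined residues 1 to 365 of HIF-2α, which hold the DNA-binding and dimerization domains (DBD), to residues 364 to 826 of HIF-1α, which hold the disordered region (IDR). HIF-1α/2α joined residues 1 to 363 of HIF-1α to residues 366 to 870 of HIF-2α. Each line had 3 anti-V5 and 3 IgG libraries, and each of the 18 peak lists is 1 anti-V5 library called against IgG of the same line and replicate number. The labels do not say whether replicates were separate cultures, so the spread between them may be technical. Each added protein was present in 1 line. A difference by DBD or by IDR is thus a difference between lines, and its SE and p-value rest on the spread between libraries of these lines. The study reports that expression from this promoter varied between cells even in stable lines, and that cells of similar level were chosen for imaging. Whether the level of the added protein differed between the lines used for Cut&Run, or affected binding, was not tested.

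HIF-1α and HIF-2α pair with HIF-1β and bind the hypoxia response element (HRE), whose core is ACGTG or GCGTG. Liprins-α are scaffold proteins that bind LAR-type receptor phosphatases and organise presynaptic active zones and cell adhesions. PTPRN (IA-2) and PTPRN2 (phogrin) are membrane proteins of dense-core secretory granules and well known autoantigens of type 1 diabetes, and PTPRM is a cell-surface phosphatase that binds itself on neighbouring cells.

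The lists differed widely in length, which bears on every count of calls. Tagged lists held between 3984 and 20808 peaks, and the depth of the 18 libraries, worked out from the background that the peak caller used, was 0.241 to 0.625 fragments per base and highest in HIF-2α/1α replicate 2. The lists of KIN replicates 1 to 3 held 3984, 13193 and 7311 peaks, and the first was the shortest of all tagged lists. The shortest of the 12 lists of added proteins were those of HIF-2α replicates 1 and 3, with 6590 and 5906 peaks. WT replicate 2 held 9508 peaks against 392 and 743 in the other WT lists. To set lists of unequal length side by side, each peak was ranked in its own list by its −log10 p. The rank was given as a percent of the list, so that a low percent marks a strong peak. A percent does not remove the effect of length, since a short list can lack weak peaks and then gives the same peak a larger percent. This bears on every comparison of ranks between lines.

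The HRE nearest to the summit is shown for the 5 sites that carry most of the results, since it is the element that HIF is known to bind. Whether HIF bound through these copies was not tested. Each window is 25 bases of hg38 read 5′ to 3′ on the strand named, with the core in capitals.
PPFIA4 promoter, chr1:203026540-203026564, plus strand: cggctctaggACGTGtcgggctgca
PTPRN intron, chr2:219298938-219298962, minus strand: tggagccgaaACGTGtccgtaggca
PTPRN coding exon, chr2:219295063-219295087, minus strand: tacctgaagaACGTGcagacccagg
PPFIA3 internal start, chr19:49127765-49127789, plus strand: tatttcccctACGTGgtatccgagt
PTPRM intron, chr18:7950943-7950967, minus strand: cccataagctACGTGtgactaacta

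The cores lay 77, 37, 62, 339 and 81 bp from the respective summits, and the sites held 7, 1, 10, 1 and 1 cores between their bounds. Over all 90 sites, 19 (21.1%) had a core within 50 bp of the summit. Of the 35 sites called in at least 2 libraries it was 9 (25.7%), against 6205 of 25783 regions called in as many (24.1%). Among sites called in at least 8 tagged libraries it was 4 of 14 (28.6%), against 29.8% of 9278 regions. The search covered both strands, so that CACGTG, which reads the same on both, gave a core on each. A match is a description of the sequence only. The best-supported PTPRN2 site had no core within 100 bp, and the core nearest to its summit was 245 bp away. It held instead an AP-1 motif (TGACTCA or TGAGTCA on either strand) 44 bp from its summit.
PTPRN2 intron, chr7:157564953-157564977, plus strand: catggaataTGAGTCAgtcataaaa

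An AP-1 motif lay within 50 bp of the summit at 7 of 90 sites (7.78%). Of the 35 sites called in at least 2 libraries it was 3 (8.57%), against 8.29% of the 25783 regions.

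**Figure D1:**
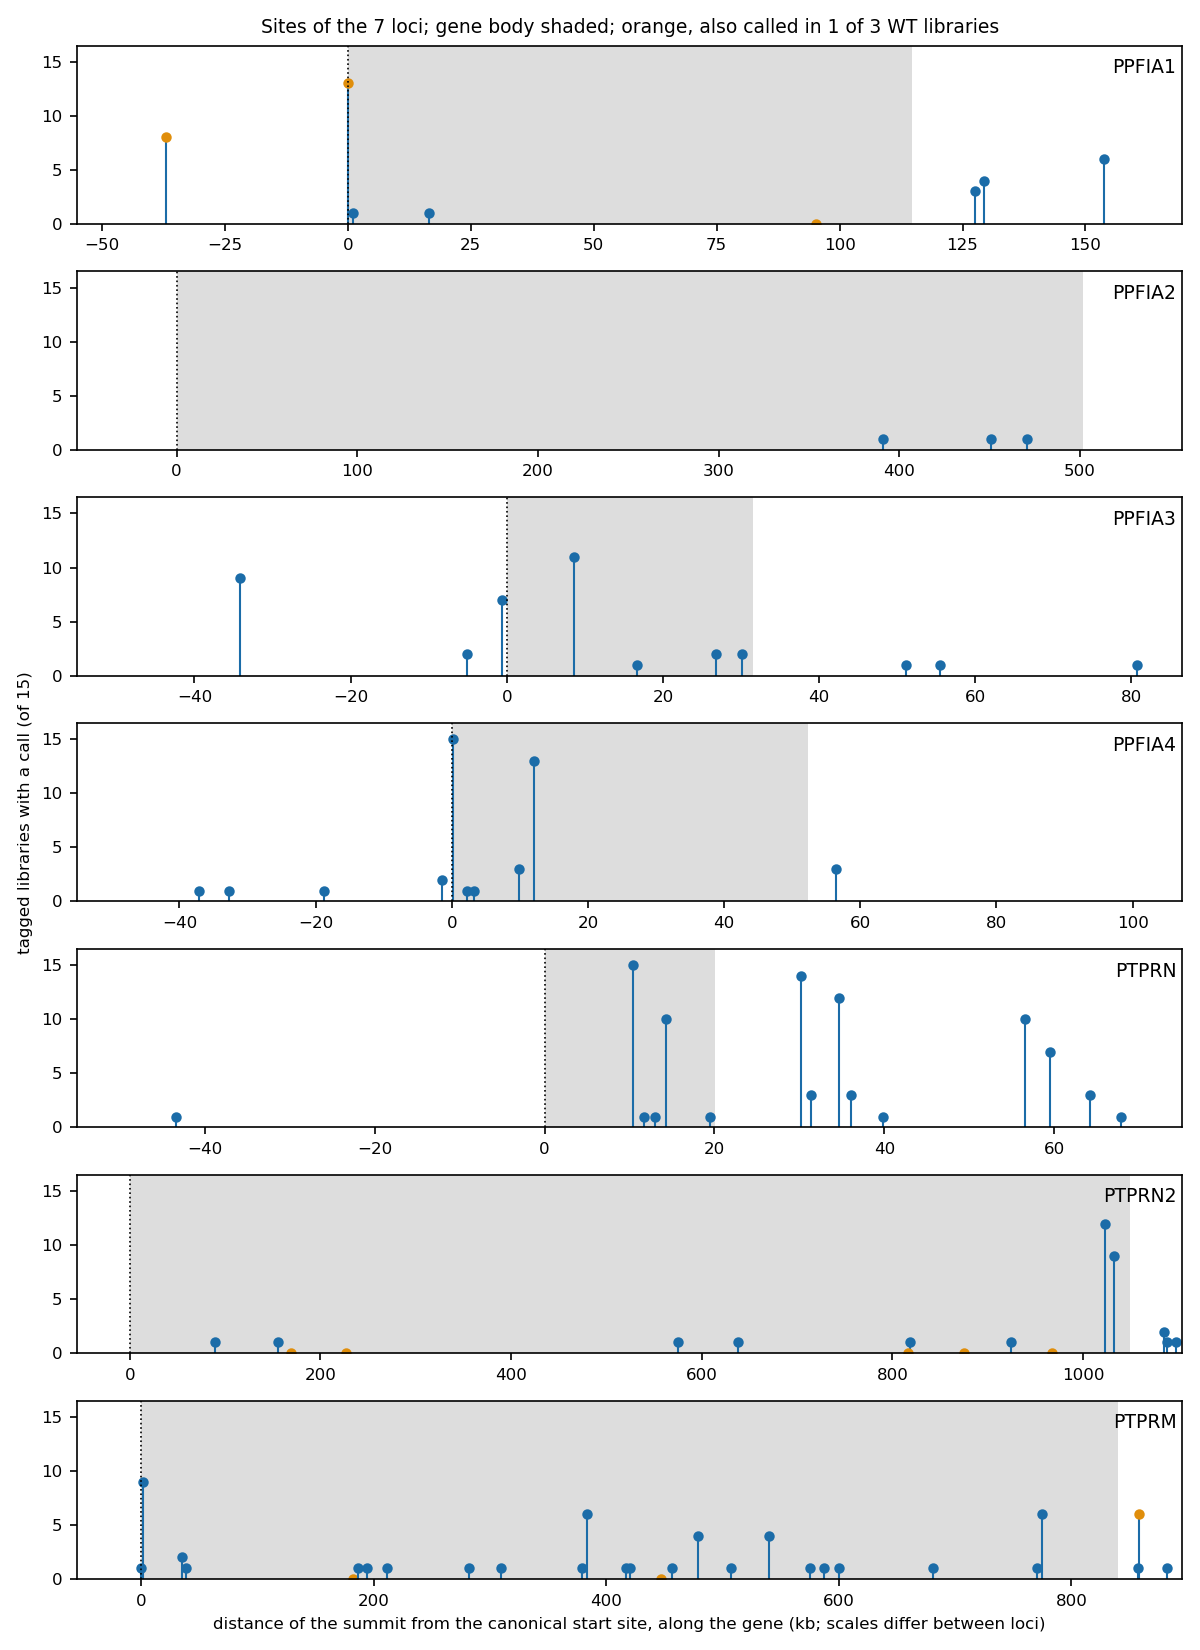
Sites of the 7 loci by the distance of their summit from the canonical start site of the gene (x axis, kb along the gene, with a different scale for each locus) and by the number of the 15 tagged libraries with a call (y axis), with the gene body shaded. Orange points were also called in 1 of 3 WT libraries; PPFIA4 and PTPRN are the loci with a site called in all 15 tagged libraries, and PPFIA2 holds 3 sites of 1 call each.

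Among the liprin-α genes, PPFIA4 carried the strongest and most regular binding, and PPFIA2 almost none. The 10 sites of the PPFIA4 locus included 5 called in at least 2 of 3 libraries of a tagged line, the PPFIA3 locus had 4 such sites of 10, PPFIA1 had 4 of 8 and PPFIA2 had 0 of 3. The phosphatase loci had 7 of 15 (PTPRN), 2 of 16 (PTPRN2) and 6 of 28 (PTPRM). At PTPRN2 and PTPRM, 13 and 21 of the sites were called in 1 library. Of the 35 sites called in at least 2 libraries, 2 were called in 15 of 15 tagged libraries and in 0 of 3 WT libraries, at PPFIA4 and PTPRN, beside 4.66% of all 25783 regions.

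The PPFIA4 promoter site (chr1:203025814-203027798) had its summit in the 5′ UTR, 131 bp downstream of the nearest PPFIA4 start site. Its rank was 6.15, 5.20 and 6.96% for HIF-2α KIN replicates 1 to 3, 3.99, 5.87 and 10.4% for HIF-2α, 0.966, 1.40 and 2.57% for HIF-2α/1α, 2.89, 4.63 and 3.57% for HIF-1α, and 8.90, 6.51 and 8.63% for HIF-1α/2α. As a percent it ranked highest in all 3 libraries of the chimera with the HIF-2α DBD and the HIF-1α IDR. The range of this chimera did not overlap with that of any other line. This held at 36 of 1602 regions called in all 15 tagged libraries (2.25%), and since the study had shown this promoter from these libraries it is a description. By place in the list it stood at 164, 291 and 318 for HIF-2α/1α, and KIN replicate 1 (245) and HIF-2α replicate 1 (263) fell among these. Summits of the 15 libraries fell within 43 bp of each other. In fragments at the summit the site held 43, 74 and 36 in KIN, 66, 134 and 28 for HIF-2α, 207, 394 and 85 for HIF-2α/1α, 89, 128 and 69 for HIF-1α, and 47, 75 and 44 for HIF-1α/2α. The enrichment over background, as the peak caller gives it, ran from 23.1-fold in HIF-2α replicate 3 to 125-fold in HIF-2α/1α replicate 2, the deepest library.

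The second PPFIA4 site (chr1:203037868-203038816) lay in an intron, 4050 bp from an internal start site and 12043 bp from the canonical one. It was called in 13 of 15 tagged libraries, with ranks of 19.6 and 41.9% for KIN (replicates 2 and 3), 20.2 and 10.6% for HIF-2α (replicates 1 and 2), 8.20, 7.70 and 12.1% for HIF-2α/1α, 7.06, 3.33 and 8.48% for HIF-1α, and 23.4, 10.8 and 23.8% for HIF-1α/2α. It thus stood below the promoter in 12 of the 13 lists, and above it in 1, HIF-1α replicate 2. All 6 libraries with the HIF-1α IDR ranked it within the first 12.1% of their lists, as did HIF-2α replicate 2 and HIF-1α/2α replicate 2. The closest HRE core was 191 bp from the summit.

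The remaining PPFIA4 sites were weak. An intron site at chr1:203036122-203036507 was called in HIF-2α/1α replicates 1 and 2 (45.1 and 32.3%) and HIF-1α replicate 3 (79.6%), and a site between PPFIA4 and MYOG, the gene of the muscle regulator myogenin, was called in HIF-2α/1α replicate 2 (67.5%) and HIF-1α replicates 1 and 2 (70.1 and 50.7%). Neither was called in a library with the HIF-2α IDR or in KIN. The other 6 sites had 1 or 2 calls each. None of the 10 sites was called in WT.

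At PPFIA3, which is expressed mainly in brain, the leading site did not lie at the canonical promoter but 8572 bp inside the gene, 242 bp from an internal start site (chr19:49127495-49128442). It ranked 58.6 and 59.8% for HIF-2α replicates 1 and 2, 13.7, 6.71 and 30.2% for HIF-2α/1α, 2.36, 1.33 and 3.63% for HIF-1α, and 10.5, 6.62 and 5.07% for HIF-1α/2α. It was not called in HIF-2α replicate 3 or in any of the KIN and WT libraries. The 3 HIF-1α ranks were above those of every other library with a call, as at 244 of the 7233 regions called in all 3 HIF-1α and at least 8 tagged libraries (3.37%), and the 2 HIF-2α ranks were the lowest. Fragments at the summit were 13 and 46 for HIF-2α, 58, 192 and 41 for HIF-2α/1α, 117, 241 and 82 for HIF-1α, and 84, 131 and 72 for HIF-1α/2α. The fold enrichment over the background taken from IgG was 7.17 and 3.64 for HIF-2α and 18.6, 48.6 and 26.0 for HIF-1α. It was 13.4, 36.7 and 7.28 for HIF-2α/1α and 9.37, 14.4 and 32.8 for HIF-1α/2α, so that the chimeras overlapped.

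With 1 uncalled library of the 12, this PPFIA3 site was not part of the main test of strength, which used regions called in all 12. In the alternative that asked for 2 of 3 libraries of each line, and that left HIF-2α replicate 3 out at this site, binding was stronger with the HIF-1α DBD, with a difference of −1.35 ± 0.37 (HIF-2α minus HIF-1α DBD, log2 of normalised fold enrichment, SE; limma adjusted p = 0.0229). By this rule 115 of 4893 regions (2.35%) were called by DBD, 89 of them (1.82%) stronger with the HIF-1α DBD, and 77 (1.57%) by IDR. The IDR difference at the site was −0.93 ± 0.37 (SE, limma adjusted p = 0.185), which did not pass. Whether the DBD difference was larger than the IDR difference was not tested.

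The canonical PPFIA3 promoter held a weaker site, 615 bp upstream in a coding exon of C19orf73, called in 2 of 3 HIF-2α/1α, 3 of 3 HIF-1α and 2 of 3 HIF-1α/2α libraries with a median rank of 68.0%. The promoter of SNRNP70, which encodes a protein of the U1 splicing particle, lies within the window, and its site was called in 1 KIN, 0 HIF-2α, 2 HIF-2α/1α, 3 HIF-1α and 3 HIF-1α/2α libraries (median rank 41.5%). A site at the start of LIN7B, which encodes a PDZ scaffold protein, was called in 2 HIF-1α libraries only, at 58.0 and 99.6%. At all 3 sites an HRE core lay within 50 bp of the summit of the best-ranked call. At the canonical promoter the summits of the 7 calls were spread over 412 bp, and 3 lay within 100 bp of the one used.

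PPFIA1 lies on chromosome 11 beside FADD and CTTN, which encode a death receptor adaptor and the actin-binding protein cortactin. Its promoter site (chr11:70269989-70271426, summit 29 bp from a start site) was called in 13 tagged libraries and in 1 of 3 WT libraries, WT replicate 2, at 23.7%. The ranks were 78.9, 42.4 and 20.8% for KIN, 12.0% for HIF-2α replicate 2, 9.12, 6.17 and 7.97% for HIF-2α/1α, 9.40, 7.63 and 9.07% for HIF-1α, and 21.6, 52.4 and 14.4% for HIF-1α/2α. The ranks of the lines with the HIF-1α IDR, 6.17 to 9.40%, did not overlap with the 4 ranks given by lines with the HIF-2α IDR, of 12.0% and more. Among the 1136 regions with 6 and 4 calls in these lines, ranks separated in this direction at 31 (2.73%). Its sequence was 80.7% G or C in a window around its summit. The median was 52.2% over regions called in at least 2 libraries, and 65.45% over those within 1 kb of a start site.

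An intergenic site 37.0 kb upstream of PPFIA1 was called in 6 of 6 libraries with the HIF-1α IDR and 2 of 6 with the HIF-2α IDR (exact Fisher p = 0.0606, adjusted p = 1), and also in WT replicate 2. In that WT list it ranked 9.52%, higher than in any tagged list (28.1 to 73.4%). It held an AP-1 motif 29 bp from its summit. At CTTN, 3 sites were called in 3, 4 and 6 tagged libraries, and 1 of them, in a CTTN intron, was called in 4 of 6 libraries with the HIF-2α DBD and 1 of 6 with the HIF-1α DBD (exact Fisher p = 0.242).

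At PPFIA2, whose product is a synaptic liprin, the 3 sites were called once each, in KIN replicate 2, HIF-2α replicate 2 and HIF-1α replicate 2, at 71.0, 77.6 and 98.7% of their lists. These held 6, 9 and 5 fragments at the summit, and the 3 libraries have the longest lists of their lines. None of the 3 had an HRE core within 100 bp of its summit.

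The leading PTPRN site (chr2:219298742-219299801) lay in an intron, 10414 bp downstream of the canonical start site and 2646 bp upstream of an internal one. It ranked 13.6, 2.79 and 9.53% for KIN, 11.7, 5.31 and 23.4% for HIF-2α, 1.08, 3.01 and 1.11% for HIF-2α/1α, 0.883, 0.851 and 3.94% for HIF-1α, and 5.84, 8.65 and 16.0% for HIF-1α/2α. All 6 libraries with the HIF-1α IDR ranked it higher than all 6 with the HIF-2α IDR. Ranks separated in that direction at 73 of 2566 regions called in all 12 libraries (2.84%), and in the other direction at 13 (0.507%). The fragments at the summit were 29, 75 and 42 in KIN, 47, 133 and 30 for HIF-2α, 218, 396 and 105 for HIF-2α/1α, 93, 197 and 79 for HIF-1α, and 62, 63 and 40 for HIF-1α/2α. The fold enrichment ran from 25.0 to 109 with the HIF-1α IDR and from 9.89 to 47.3 with the HIF-2α IDR, and these ranges overlapped.

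**Figure D2:**
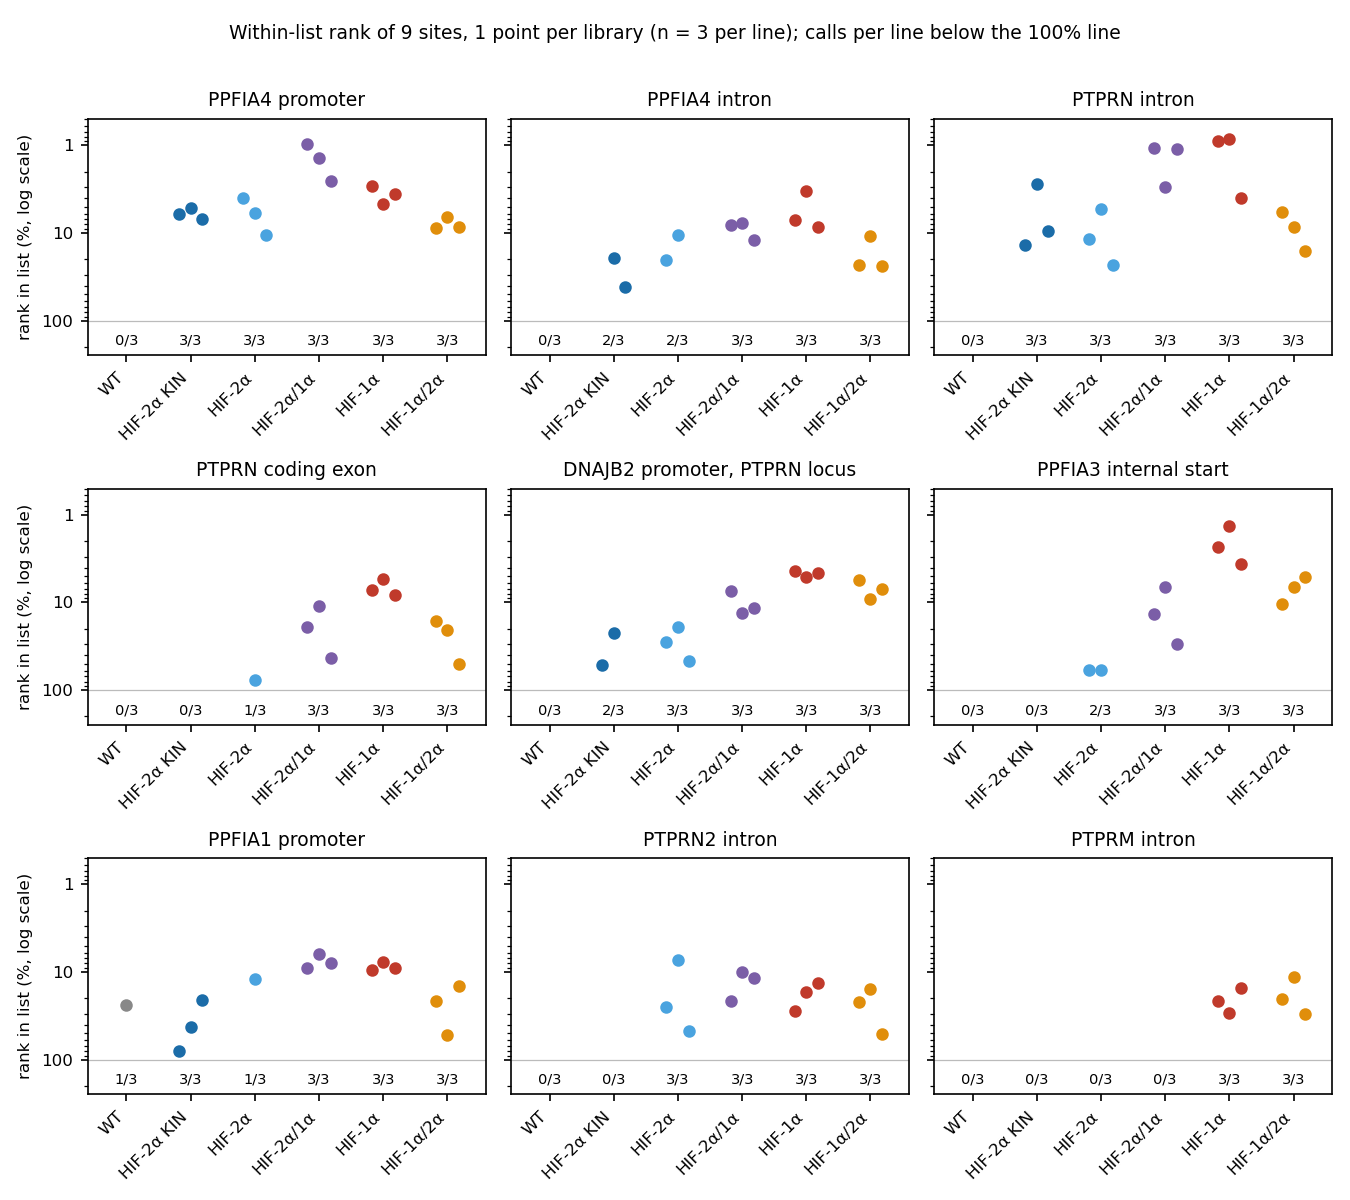
Rank of 9 sites within each peak list (y axis, percent of the list on a log scale, strongest at the top) for the 6 lines (x axis), with 1 point per library that called the site and the number of calls of 3 written below. Among the added proteins, PTPRN intron ranks are highest for HIF-2α/1α and HIF-1α. PPFIA4 promoter ranks are highest for HIF-2α/1α, and those for HIF-1α overlap with those for HIF-2α. The PPFIA3 site runs from about 59% for HIF-2α to 1.33% for HIF-1α, and the PTPRM intron has points for HIF-1α and HIF-1α/2α only.

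PPFIA4 and PTPRN had been shown by the study as examples from these libraries, so their differences in strength are a description with no test. In quantile-normalised log2 fold enrichment over the 2566 regions, the PTPRN intron averaged 4.62 ± 0.49 for HIF-2α, 5.49 ± 1.02 for HIF-2α/1α, 5.90 ± 0.99 for HIF-1α and 4.56 ± 0.52 for HIF-1α/2α (SD, n = 3 each). The PPFIA4 promoter averaged 5.32 ± 0.75, 5.98 ± 0.26, 4.98 ± 0.32 and 4.86 ± 0.13 in the same order. The IDR differences, HIF-2α minus HIF-1α, were thus −1.11 ± 0.35 at PTPRN and −0.39 ± 0.34 at the PPFIA4 promoter (SE), beside a median of −0.01 over the 2566 regions. Over all these regions, 48 (1.87%) were called by IDR and 77 (3.00%) by DBD at a limma adjusted p under 0.05, 54 of the latter (2.1%) stronger with the HIF-1α DBD.

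Of the 4 member sites called in all 12 libraries, the DBD difference was 0.73 ± 0.34 at the PPFIA4 promoter (SE, higher with the HIF-2α DBD) and −0.18 ± 0.35 at the PTPRN intron, again with no test. At the other 2 sites it did not pass, with −0.74 ± 0.35 at the DNAJB2 promoter described next (SE, limma adjusted p = 0.260) and 0.37 ± 0.35 at the PTPRN2 intron (SE, limma adjusted p = 0.672). The interaction of IDR and DBD was called at 0 of 2566 regions (limma; 131 at an unadjusted p under 0.05), and at the 4 sites it lay between −0.54 and 0.47.

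**Figure D3:**
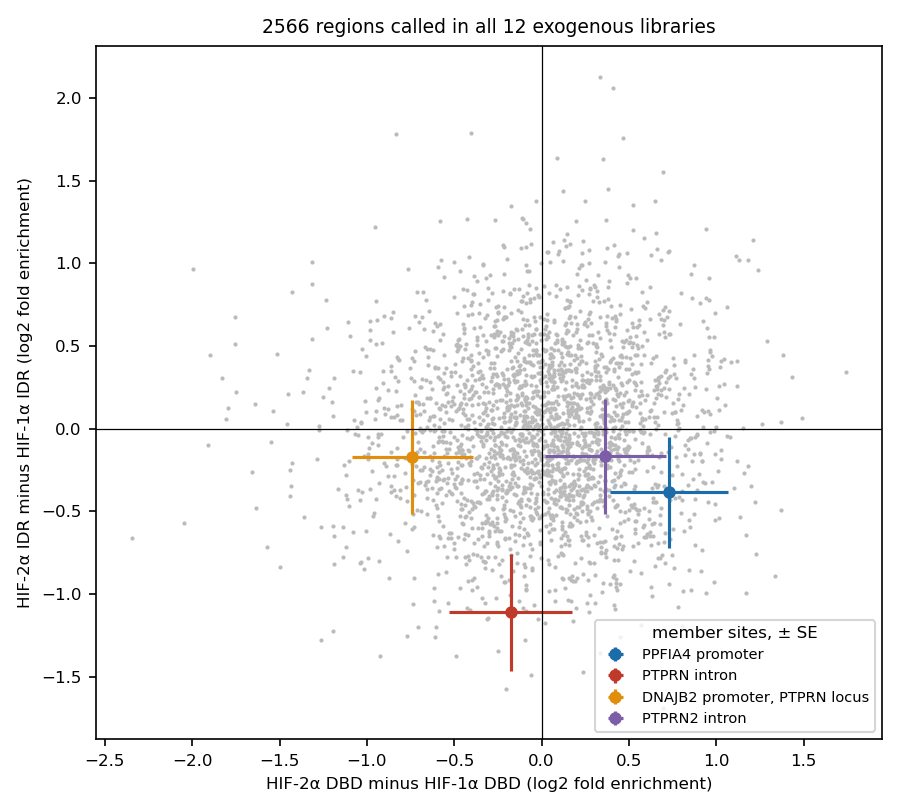
Difference in normalised log2 fold enrichment by IDR (y axis) against that by DBD (x axis), HIF-2α minus HIF-1α in both, for 2566 regions called in all 12 libraries of added proteins (grey), with the 4 member sites in colour (bars, SE). The PTPRN intron lies low on the IDR axis at −1.11 and near 0 on the DBD axis, while the PPFIA4 promoter and the DNAJB2 promoter lie on opposite sides of the DBD axis at 0.73 and −0.74.

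Downstream of PTPRN, toward DNAJB2 and TUBA4A, the locus held a row of further sites. The site at the DNAJB2 promoter (chr2:219278962-219280308, summit 72 bp upstream of a start site of DNAJB2, a co-chaperone gene) was called in 14 of 15 tagged libraries. It ranked 52.0 and 22.6% for KIN replicates 1 and 2, 28.3, 18.9 and 46.6% for HIF-2α, 7.45, 13.3 and 11.5% for HIF-2α/1α, 4.42, 5.13 and 4.65% for HIF-1α, and 5.59, 9.14 and 7.00% for HIF-1α/2α. Except for HIF-2α/1α replicate 1 against HIF-1α/2α replicate 2, all libraries with the HIF-1α DBD ranked it above all with the HIF-2α DBD. Ranks of the added proteins separated in full in this direction at 62 of 2566 regions (2.42%). This site does not meet that stricter split, and regions with such an exception were not counted. With −log10 p in place of fold enrichment, the DBD difference was −1.19 ± 0.28 (SE, limma adjusted p = 0.00621) and passed, beside 392 of 2566 regions (15.3%) called in that way, 230 of them (8.96%) in this direction. Over all alternatives of this test the adjusted p lay between 0.00621 and 0.555.

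Within PTPRN itself, the coding exon site (chr2:219294668-219295947) was called in 0 KIN, 1 HIF-2α, 3 HIF-2α/1α, 3 HIF-1α and 3 HIF-1α/2α libraries. Its ranks were 76.1% for HIF-2α replicate 2, 19.2, 10.9 and 43.3% for HIF-2α/1α, 7.18, 5.41 and 8.12% for HIF-1α, and 16.3, 20.4 and 50.4% for HIF-1α/2α. It stood highest in the 3 HIF-1α libraries, which did not overlap with any other line, as at 3.37% of regions in the count given for the PPFIA3 site. With 10 HRE cores in 1280 bp, counted on each strand, it held more cores than the stronger intron site, which held 1. The 3 other sites in the gene body were each called in 1 library.

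At TUBA4A, an α-tubulin gene, an intron site was called in 12 tagged libraries (median rank 39.9%) and in none of WT. A site of 2892 bp that covers a start site of TUBA4A was called in 6 of 6 libraries with the HIF-1α IDR and 3 of 6 with the HIF-2α IDR (median rank 62.2%), and the summits of its 10 calls were spread over 1196 bp. A site where the ends of STK16 and TUBA4A meet was called in 5 of 6 libraries with the HIF-1α DBD and 2 of 6 with the HIF-2α DBD (exact Fisher p = 0.242), in 0 of 3 KIN and 0 of 3 HIF-2α libraries. When the list was cut to the strongest 3984 peaks of each library, the length of the shortest tagged list, the TUBA4A intron site remained in 3 libraries and the other TUBA4A sites in 0, whereas the PTPRN intron and PPFIA4 promoter remained in 15 of 15 and the DNAJB2 promoter in 14.

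PTPRN2 spans 1048768 bp, and its 2 best-supported sites lay in introns near the 3′ end, more than 1000 kb from the canonical start. The stronger (chr7:157564698-157565630) was called in all 12 libraries of added proteins and in 0 of 3 KIN libraries, a pattern shown by 106 of 25182 regions (0.421%). It ranked 25.3, 7.30 and 47.3% for HIF-2α, 21.5, 10.1 and 11.6% for HIF-2α/1α, 27.8, 16.8 and 13.3% for HIF-1α, and 22.2, 15.7 and 51.0% for HIF-1α/2α. The 4 lines overlapped, and the IDR difference of −0.17 ± 0.35 (SE, limma adjusted p = 0.858) did not pass. Fragments at the summit ran from 29 to 220.

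The other PTPRN2 intron site (chr7:157555208-157556007), 9.39 kb away, was called in 1 HIF-2α, 3 HIF-2α/1α, 3 HIF-1α and 2 HIF-1α/2α libraries, at 8.95 to 60.4%. By IDR the calls were 6 of 6 with HIF-1α and 3 of 6 with HIF-2α (exact Fisher p = 0.182). Of the remaining 14 sites, 13 were called once, 5 of them in WT replicate 2 only. No site lay within 1 kb of a PTPRN2 start site.

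At PTPRM the leading difference was by DBD. An intron site (chr18:7950825-7951706, 4166 bp from an internal start site) was called in 3 of 3 HIF-1α and 3 of 3 HIF-1α/2α libraries and in 0 of 9 libraries with the HIF-2α DBD, KIN included. It ranked 21.3, 29.6 and 15.1% for HIF-1α and 20.2, 11.5 and 30.2% for HIF-1α/2α, with 35, 41 and 34 and with 25, 46 and 25 fragments at the summit. The site was chosen for this difference, the largest by DBD among the 90 sites (exact Fisher p = 0.00217, the smallest that 6 against 6 libraries allow, adjusted p = 1). Beside it, 142 of 25182 regions (0.564%) had an unadjusted p under 0.05 by DBD, and 123 (0.488%) with more calls for the HIF-1α DBD.

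The split of 6 of 6 against 0 of 6 in that direction was shown by 17 regions (0.0675%), and the reverse by 4 (0.0159%). Of the 17, 14 (0.0556%) also had no call in KIN, and by median rank in the 6 libraries the PTPRM site was the fifth of these 14, after sites nearest to CDH2, ZC3HC1, RAPGEF6 and CBX5. The libraries without a call included the 2 deepest of all, HIF-2α replicate 2 and HIF-2α/1α replicate 2. In these, 73.0 and 54.9% of the called peaks had no more than 46 fragments at the summit, the highest number seen at the PTPRM site. The 46 came from HIF-1α/2α replicate 2, at 0.284 fragments per base, against 0.536 and 0.625 in the 2 deepest. A call also depends on the local background, and the fragments at this site in libraries without a call are not known. Whether binding there fell below a call was not tested. After the lists were cut to equal length the site remained in 5 of 6 libraries with the HIF-1α DBD. A cut can only remove calls, so the 0 of 6 with the HIF-2α DBD was fixed beforehand.

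The other sites of PTPRM were less sharply divided. A site 1516 bp inside the gene had the best support, with 9 tagged libraries, 6 of 6 with the HIF-1α IDR and 2 of 6 with the HIF-2α IDR (exact Fisher p = 0.0606, adjusted p = 1), at 20.0 to 83.0%, and an HRE core 1 bp from its summit. A further intron site was called in 3 HIF-1α and 1 HIF-1α/2α libraries and in 0 of 6 with the HIF-2α DBD, at 79.4 to 99.7%. An intron site 775 kb from the canonical start was called in 2 KIN, 1 HIF-2α, 2 HIF-2α/1α, 1 HIF-1α and 0 HIF-1α/2α libraries at 22.9 to 50.1%, and was the 1 PTPRM site found in 2 of 3 KIN libraries.

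**Figure D4:**
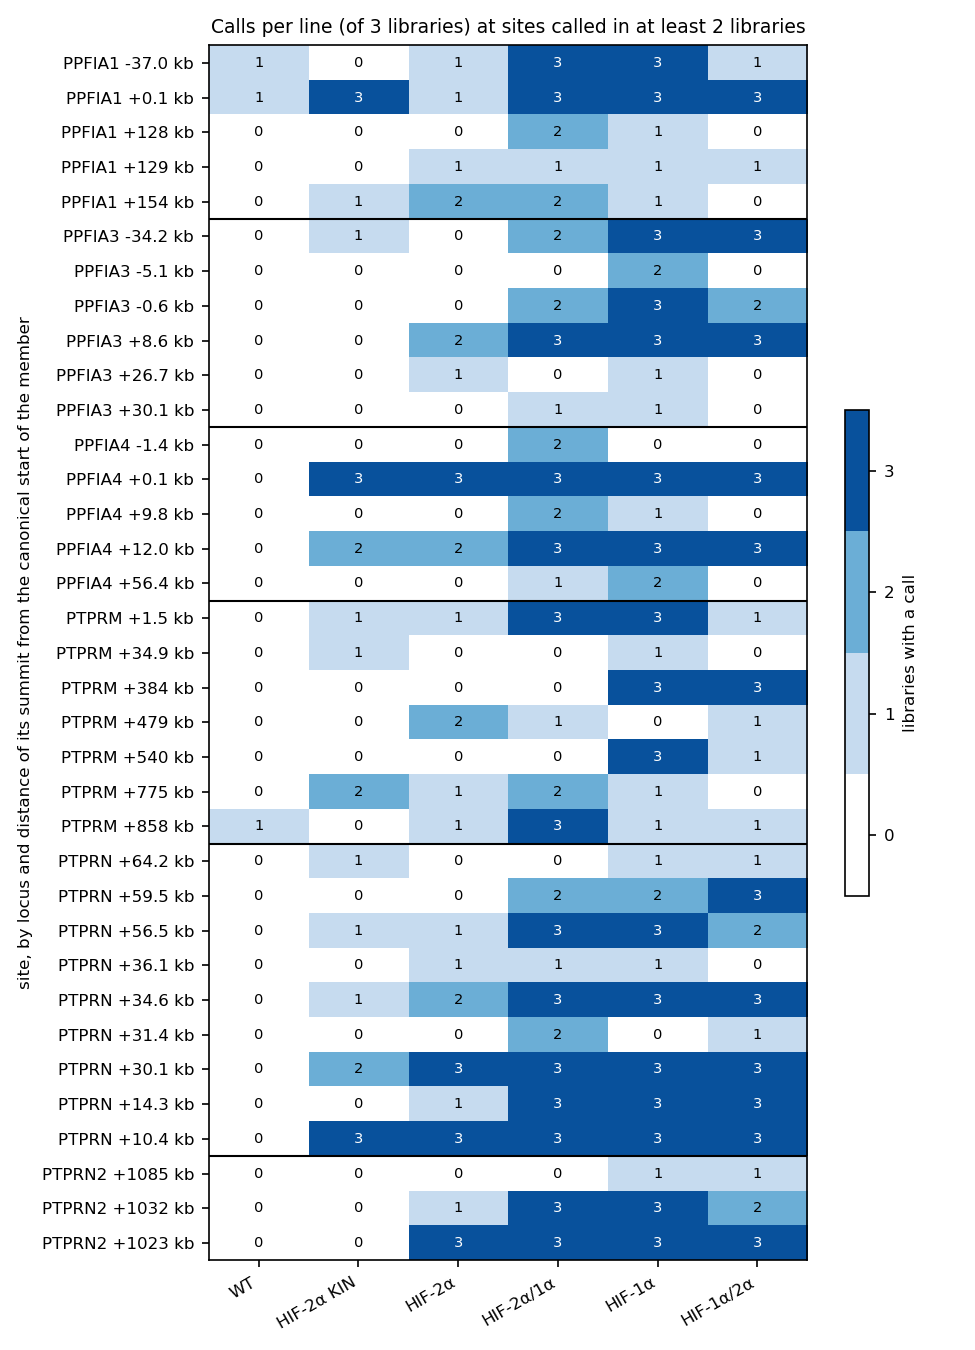
Number of libraries with a call (colour and digit, of 3) in each of the 6 lines (columns) at the 35 sites called in at least 2 libraries (rows, by locus and by the distance of the summit from the canonical start of the gene). Rows filled in all 5 tagged lines are the PPFIA4 promoter and the PTPRN intron at 10.4 kb, and the PTPRM row at 384 kb is filled in HIF-1α and HIF-1α/2α and empty elsewhere.

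For endogenous and for added HIF-2α, the shares of sites called at these loci were near those of all regions. Of the 35 sites, 6 (17.1%) were called in at least 2 of 3 KIN libraries, beside 19.6% of all regions, and 9 (25.7%) in HIF-2α, beside 26.0%. The share was 65.7% for HIF-2α/1α, 57.1% for HIF-1α and 42.9% for HIF-1α/2α, beside 53.7, 55.1 and 42.4% of all regions. The 6 KIN sites were both PPFIA4 sites, the PTPRN intron, the DNAJB2 promoter, the PPFIA1 promoter and the last PTPRM site above. At the PPFIA4 promoter and the PTPRN intron, added HIF-2α minus KIN was −0.15 ± 0.47 and −0.83 ± 0.49 in normalised log2 fold enrichment (SE, no test), and over all regions 3 of 1602 (0.187%) were called by limma.

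By IDR, 25 of the 35 sites (71.4%) had more calls with the HIF-1α IDR, 9 as many and 1 (2.86%) fewer, beside 58.4% with more and 14.8% with fewer of all 25182 regions. The lists with the HIF-1α IDR held 12371 to 20808 peaks and those with the HIF-2α IDR 5906 to 20651. In lists of equal length it was 6 more and 2 fewer of 13 sites, beside 36.7 and 32.0% of 6830 regions. By DBD, 17 sites (48.6%) had more calls with the HIF-1α DBD and 9 (25.7%) more with the HIF-2α DBD, beside 42.6 and 25.1% of all regions. In lists of equal length it was 8 and 2 of 13, beside 32.3 and 35.3% of 6830 regions, where more calls with the HIF-2α DBD were the more frequent. At an unadjusted exact Fisher p under 0.05, 0 of the 35 sites were called by IDR and 1 by DBD. By IDR this stood beside 357 of 25182 regions (1.42%, and 1.32% with more calls for the HIF-1α IDR). After adjustment there was no region in either comparison. The smallest exact Fisher p for 6 against 6 libraries is 0.00217. Adjusted over 25182 regions, it could pass only if a very large number of them split in full, so nothing is drawn from this outcome.

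WT libraries called 11 of the 90 sites, all in WT replicate 2 and none in a second WT library, and 8 of these were called in WT only. Of all 61215 regions, 15.4% were called in WT replicate 2 and 10.4% in WT libraries only. The sites shared with tagged libraries were the PPFIA1 promoter, the site upstream of PPFIA1 and an intergenic site beyond PTPRM.

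Related gene groups were counted in the same way. Of the 7 genes, 6 had a site called in at least 2 of 3 libraries of a tagged line, beside 14121 of 20007 protein-coding genes (70.6%). Per Mb of gene and flanks this gave 8.46 such sites, beside 12.3 over all protein-coding genes. Both liprin-β genes, PPFIBP1 and PPFIBP2, had such a site, as had all 3 LAR-type receptor phosphatase genes to which liprins-α bind (PTPRF, PTPRS, PTPRD), 2 of 3 other genes of the PTPRM type, 8 of 11 other receptor phosphatase genes, 5 of 9 genes of liprin-α partners and 6 of 9 genes of dense-core granule proteins. In the last group VGF, a granule peptide precursor, had 12 such sites, 3 of them called in all 15 tagged libraries, while the chromogranin gene CHGA and the secretogranin genes SCG2 and SCG3 had 0.

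Across the 15 tagged libraries, the regions whose normalised log2 fold enrichment varied most like that of the PPFIA4 promoter were promoters, nearest to MFSD4B (Pearson r = 0.852), BTAF1 (0.742), ZNF84 (0.740), PUM2 (0.730) and SRP54 (0.724). Those most like the PTPRN intron were nearest to SEMA5B (0.778), FAM131C (0.713), KBTBD11 (0.680), ENOSF1 (0.677) and HMOX1 (0.677). The leading PPFIA4 and PTPRN sites were not alike in this measure (r = −0.07, place 947 of the other regions for PPFIA4). These are the highest of 1601 values over libraries that share lines, and the median r was 0.01 for both sites.

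The window of 50 kb sets which sites count. The outermost sites inside it lay 49264 bp from PPFIA3 and 48299 bp from PTPRN2, with 1 tagged call each, and the nearest sites outside it lay 53128 bp from PTPRN and 55398 bp from PPFIA4, with 2 tagged calls each.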

How the data were processed

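The 18 narrowPeak lists deposited by the authors, 1 per anti-V5 library, were used. The authors aligned reads to hg38 with Bowtie2 2.3.4.1 (local mode, fragments of 10 to 700 bp), processed them with SAMtools 1.8, removed blacklisted regions with BEDTools 2.28.0 and called peaks with MACS2 (q of 0.01, maximum gap of 400 bp, duplicates kept) against IgG of the same line and replicate; the MACS2 version is not given in the sources used here. Of each deposited peak, the fold enrichment (a ratio of fragments to background at the summit) and the −log10 p and −log10 q were used. The lists hold no read totals, so fragments at the summit were solved from the fold and −log10 p (99.99% or more of peaks in each list within a tolerance of 0.001, or 0.01 in HIF-2α/1α replicate 2, whose pileup had been scaled by 0.949), and depth is the lowest background of a list. A peak lists a minimum, so a region without a call has no value and is not a 0.

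Peaks were merged where they overlapped by 1 bp, and sites were taken within 50 kb of GENCODE release 44 genes. No peak ran past a chromosome end of the hg38 genome used. Calls of 6 against 6 libraries were compared with a two-sided exact Fisher test over 25182 regions called in at least 2 libraries, in fewer than 2 WT libraries and in a library of an added protein. With so few libraries this test could hardly pass after adjustment, so its adjusted p-values do not show that calls were alike. Strength was compared with limma 3.58.1 (R 4.3.3) on quantile-normalised log2 fold over regions called in every library compared. All p-values were adjusted by Benjamini-Hochberg over all regions tested, with a threshold of 0.05. Tested on simulated data for the IDR difference in strength, limma recovered 41% of changes of 1 and 98% of changes of 2 on the log2 scale over 2566 regions.

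The sites described are the best ranked at each locus among those called most often, up to 4 more called in at least 8 tagged libraries, those with the greatest difference in calls by IDR or (from 3 calls) by DBD, and those within 1 kb of a start site of the gene; some others are named for completeness. The members, gene lists and tests were chosen with earlier results of these data known. Alternatives were lists of equal length, a −log10 q of at least 5, summits within 200 bp, −log10 p in place of fold, median centring, 2 of 3 libraries of each line, a trend in limma, the replicate number as a block, a window of 10 kb, and leaving out each library.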

Additional observations from a re-analysis of the deposited data

How the results depend on the processing

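The number of sites at the 7 loci was 90, 63 with a window of 10 kb, 96 with summits within 200 bp and 53 with a −log10 q of at least 5. The counts over all regions moved more. By IDR, 357 regions had an unadjusted Fisher p under 0.05 and 147 did so in lists of equal length, and without 1 library it was between 418 and 853, the highest without HIF-2α replicate 2. By DBD it was 142, and between 178 and 313 without 1 library, the highest without HIF-2α/1α replicate 2. The test of 5 against 6 libraries reaches p under 0.05 at smaller differences. For strength, −log10 p in place of fold raised the called regions from 48 to 581 by IDR, from 77 to 392 by DBD and from 3 to 135 for added against endogenous HIF-2α; the cause was not tested. With 2 of 3 libraries of each line there were 77 by IDR and 115 by DBD, of 4893 regions. For added against endogenous HIF-2α it was 9 with median centring and 1 with a trend. Without 1 library there were 22 to 64 by IDR, 43 to 93 by DBD and 0 to 4 for added against endogenous HIF-2α. The interaction stayed at 0 under all alternatives.

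Of the 5 differences in strength tested at single sites (DNAJB2 promoter, PTPRN2 intron and PPFIA3), the side of the threshold changed for the DBD difference at the DNAJB2 promoter (−1.19, limma adjusted p = 0.00621 with −log10 p). Those at PPFIA3 had 1 alternative, the fit without HIF-2α replicate 3. Among the values given with no test, the IDR difference lay between −1.51 and −0.85 at the PTPRN intron and between −0.75 and −0.20 at the PPFIA4 promoter over all alternatives. The DBD difference at the PTPRN intron turned to 0.084 with −log10 p and ranged from −0.47 to 0.0624 without 1 library. The IDR difference at the PTPRN2 intron ranged from −0.33 to 0.0404, and the difference of added and endogenous HIF-2α at the PPFIA4 promoter from −0.55 to 0.24. Ranked by fold, the best PPFIA2 site stood at 63.1%. With 100 bp, 48.6% of the 35 sites held an HRE, against 25.7% with 50 bp.

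Same-numbered libraries deviated together only weakly (correlations of 0.0122 to 0.151), so the numbers were not taken as pairs. With the replicate block, 68 regions were called by IDR, 96 by DBD and 4 for added against endogenous HIF-2α, calls by Fisher test stayed at 357 and 142, and no call at the tested sites changed. A region without a call may hold binding below what its list reached. This bears most on the shortest tagged lists, those of KIN replicate 1 and HIF-2α replicates 1 and 3.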
